A study of Mus musculus with 6 samples.

Results

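The Hox genes encode homeodomain transcription factors that give cells of the embryo their address along the body axis. The table of gene counts held 40 protein-coding entries with a Hox name, chosen by that name alone, among 54532 genes. The entries cover 39 symbols in 4 clusters, with Hoxd4 listed under 2 gene identifiers. The RNA was from mouse endothelium, the lining of blood vessels, kept in culture and exposed for 72 h to lentivirus carrying RBPMS (3 libraries) or an empty vector (control, 3 libraries). RBPMS is an RNA-binding protein that takes part in pre-mRNA splicing. Both groups were grown in the same complete mouse endothelial cell medium with serum, and both received lentivirus. The labels name no strain, age, vascular bed or cell line. Nothing in them says that the replicates were separate cultures, so a p-value here reflects the spread of these libraries alone, which may be technical.

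Within each cluster the genes lie in the order in which they are used from head to tail. The paralog groups are numbered from 1 at the anterior end to 13 at the posterior end, and members of a group in different clusters descend from 1 ancestral gene. Many adult cells, endothelial cells and fibroblasts among them, keep a Hox pattern that reflects the part of the body they came from. HOX proteins bind DNA together with cofactors of the TALE class (PBX, MEIS and PKNOX proteins), and silent Hox genes are typically held by Polycomb complexes while active ones depend on MLL and trithorax complexes. In cultured endothelium, HOXD3, HOXB3 and HOXA3 have been tied to angiogenic behaviour, HOXA5 and HOXD10 to the quiescent state, and HOXA9 to endothelial gene expression.

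The cells expressed 3 of the 4 clusters. Active genes there lay in paralog groups 2 to 10, and groups 5 to 9 held most of the summed Hox level. Of the 40 entries, 17 passed the filter on low counts: 6 of 11 in Hoxa, 6 of 10 in Hoxb, 5 of 10 in Hoxd and 0 of 9 in Hoxc. A further 14 entries had no count in any library, and 9 had a few counts only. Over all 6 libraries 0 of 17 Hox genes were called as changed with RBPMS, where 0 of 13898 tested genes were called. The count was 0 of 18 without control replicate 3, where 7.24% of 14123 tested genes were called. For so few Hox genes that is near the share of all genes. That library stood apart: it correlated with the others at 0.954 to 0.960 over log2 CPM of all tested genes, against 0.991 to 0.995 among the other 5. CPM are a gene's counts relative to all counts of its library, scaled by edgeR's TMM factors, and are given per kilobase of annotated exon (CPM per kb) wherever genes are compared with each other. In RNA from many cells, fewer expressing cells and less RNA per cell cannot be told apart.

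The sequences upstream of 4 Hox genes are printed because they span the pattern: Hoxd8 and Hoxb8 were the highest members of paralog group 8, Hoxd10 was the last active gene at the posterior end of its cluster, and Hoxd11 is its silent neighbour. Each is the 250 bases before the RefSeq start (GRCm38, plus strand, 5′ to 3′), and capitals mark CpG dinucleotides. The Hoxd8 window is chr2:74704365-74704614, the Hoxb8 window chr11:96281655-96281904, the Hoxd10 window chr2:74691641-74691890 and the Hoxd11 window, at the first of its 2 starts, chr2:74679308-74679557.
Hoxd8: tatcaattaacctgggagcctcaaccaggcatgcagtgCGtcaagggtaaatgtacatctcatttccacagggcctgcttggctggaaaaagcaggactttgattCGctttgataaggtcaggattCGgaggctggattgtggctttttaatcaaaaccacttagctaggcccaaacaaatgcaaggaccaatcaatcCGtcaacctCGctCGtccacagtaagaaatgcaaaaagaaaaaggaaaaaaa
Hoxb8: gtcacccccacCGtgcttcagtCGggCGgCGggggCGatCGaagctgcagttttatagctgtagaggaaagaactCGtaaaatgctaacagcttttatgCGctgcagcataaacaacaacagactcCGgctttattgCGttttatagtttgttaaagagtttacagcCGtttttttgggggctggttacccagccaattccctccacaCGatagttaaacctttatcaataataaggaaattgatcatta
Hoxd10: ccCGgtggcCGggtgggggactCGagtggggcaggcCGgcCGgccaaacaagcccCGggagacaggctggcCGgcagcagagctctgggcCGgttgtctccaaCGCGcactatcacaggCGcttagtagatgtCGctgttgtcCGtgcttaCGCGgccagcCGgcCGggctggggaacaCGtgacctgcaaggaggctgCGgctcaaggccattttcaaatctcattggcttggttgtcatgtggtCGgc
Hoxd11: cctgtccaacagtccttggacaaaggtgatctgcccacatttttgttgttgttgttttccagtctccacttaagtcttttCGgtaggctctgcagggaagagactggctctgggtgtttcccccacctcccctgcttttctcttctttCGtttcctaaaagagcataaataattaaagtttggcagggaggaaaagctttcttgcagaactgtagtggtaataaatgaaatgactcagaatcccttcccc

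Windows rich in CpG occurred among both active and silent Hox genes. The Hoxd8 window held 6 CpG and the Hoxb8 window 12, while Hoxd10 held 20 and Hoxd11 held 2 at this start. At its second start the silent Hoxd11 had 20. RefSeq windows were on hand for 22 of the 39 symbols, 24 windows in all, 2 of them of genes with a few counts. The ratio of observed to expected CpG had a median of 0.721 over 14 windows of measured Hox genes and 0.776 over 8 windows of Hox genes with no count, against 0.373 over all 32851 RefSeq windows of that length. Island-like windows, with a ratio of at least 0.6 and at least 50% G and C, made up 6 of those 14, 5 of those 8 and 31.0% of all windows. The motif CCAAT, searched on both strands, was in 9 of 14 windows of measured Hox genes, 4 of 8 windows of Hox genes with no count and 33.8% of all windows. TGATNNAT, a form bound by PBX with HOX proteins, was in 2 of 14, 1 of 8 and 7.68%, and TATAAA in 3 of 14, 1 of 8 and 12.4%. A match is a run of letters and was not tested for binding.

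The level of the Hox genes rested on a few of them. Hoxd8, Hoxb7, Hoxb8 and Hoxd9 were the 4 highest in both groups, in this order, and held 69.7% of the summed Hox level per kb with RBPMS and 73.8% in controls. Paralog groups 5 to 9 together held 91.5% with RBPMS and 92.4% in controls. By cluster, Hoxb took 47.1% ± 0.772 of the summed level with RBPMS and 45.5% ± 0.802 in controls, Hoxd took 38.3% ± 1.17 with RBPMS and 42.0% ± 1.09 in controls, and Hoxa took 14.5% ± 1.04 with RBPMS and 12.5% ± 1.70 in controls (SD, n = 3 each).

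Hoxd8, on chromosome 2 (74704615 to 74707933, plus strand, GRCm38), was the most abundant Hox transcript. It had 47.3, 51.6 and 51.0 CPM per kb in RBPMS libraries 1 to 3, against 54.4, 54.1 and 80.2 CPM per kb in control libraries 1 to 3. All 3 RBPMS libraries lay below all controls, and control replicate 3 lay far above the other libraries. Its level stood at the 96.0th percentile of all protein-coding genes with RBPMS and at the 96.6th in controls. Its cluster neighbour Hoxd9 had 20.3, 21.004 and 19.4 CPM per kb with RBPMS, against 20.4, 23.0 and 26.6 CPM per kb in controls. Hoxd10 followed with 4.81, 5.27 and 5.67 CPM per kb with RBPMS and 5.05, 5.43 and 7.20 CPM per kb in controls. The groups overlapped for both.

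Past Hoxd10 the cluster was silent. Hoxd11, whose annotated end lies 4.91 kb from the start of Hoxd10, had no count in any library, as had Hoxd12 and Hoxd13. A total of 3 counts over the 3 libraries of a group would put Hoxd11 at 0.0118 CPM per kb with RBPMS and 0.0129 CPM per kb in controls, so Hoxd10 was at least 443-fold higher with RBPMS and at least 456-fold higher in controls. Such limits cover counting error only. At the anterior end Hoxd1 had no count either. Hoxd3 averaged 0.829 ± 0.210 CPM per kb with RBPMS and 0.826 ± 0.280 CPM per kb in controls (SD, n = 3 each). Of the 2 Hoxd4 entries, ENSMUSG00000115956 had 17, 14 and 12 counts with RBPMS and 11, 7 and 11 counts in controls, and ENSMUSG00000101174 had 4, 2 and 0 counts with RBPMS and 1 count in each control.

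In the Hoxb cluster on chromosome 11 Hoxb7 was the highest gene and expression stopped after Hoxb8. Hoxb7 (96286623 to 96290162, plus strand) had 45.9, 40.7 and 45.8 CPM per kb with RBPMS, against 40.1, 40.0 and 75.2 CPM per kb in controls. Hoxb8 had 24.2, 26.4 and 24.3 CPM per kb with RBPMS, against 23.0, 24.9 and 27.9 CPM per kb in controls. Control replicate 3 was the highest library for both genes, by a wide margin for Hoxb7 and a small one for Hoxb8. Hoxb9, which lies 5.31 kb from Hoxb8, had 11, 6 and 4 counts with RBPMS and 9, 6 and 6 counts in controls, and within a library Hoxb8 was 116 to 285 times as high per kb with RBPMS and 105 to 272 times in controls.

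The more anterior Hoxb genes were lower. Hoxb6 averaged 13.8 ± 1.53 CPM per kb with RBPMS and 13.5 ± 1.61 CPM per kb in controls, Hoxb5 3.64 ± 0.218 with RBPMS and 3.58 ± 0.658 in controls, and Hoxb4 5.66 ± 0.661 with RBPMS and 5.12 ± 0.702 in controls (SD, n = 3 each). Hoxb3, tied to capillary growth, had 2.12, 1.65 and 1.39 CPM per kb with RBPMS, against 2.22, 1.88 and 0.456 CPM per kb in controls. The low value is control replicate 3. Hoxb2 had 5, 3 and 3 counts with RBPMS and 0, 4 and 3 counts in controls, Hoxb1 had 1 count in all, in control replicate 3, and Hoxb13 had none.

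The Hoxa cluster on chromosome 6 was active in separate stretches. Hoxa5, known in endothelium as an antagonist of angiogenesis, had 13.2, 13.7 and 11.3 CPM per kb with RBPMS, against 11.4, 13.1 and 17.5 CPM per kb in controls. Hoxa6 had 4.30, 4.52 and 3.82 CPM per kb with RBPMS, against 3.16, 3.95 and 1.46 CPM per kb in controls. Hoxa7 had 9.20, 9.24 and 8.26 CPM per kb with RBPMS, against 7.75, 7.80 and 5.97 CPM per kb in controls. For Hoxa7 every RBPMS library lay above every control, and for the other 2 genes the groups overlapped.

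On either side of this stretch the level dropped. Hoxa4 had 6, 10 and 6 counts with RBPMS and 6, 6 and 8 counts in controls, and within a library Hoxa5 was 47.0 to 72.0 times as high per kb with RBPMS and 48.1 to 79.1 times in controls. Hoxa9, best known in endothelium of the posterior Hoxa genes, had 14, 9 and 7 counts with RBPMS and 4, 7 and 16 counts in controls, and Hoxa7 was 75.1 to 123 times as high per kb with RBPMS and 47.3 to 172 times in controls. The length used for Hoxa9, 5580 bases, is the exon union of 5 transcripts, so its level per kb may be understated. In counts, Hoxa7 had 542, 572 and 434 with RBPMS and 355, 364 and 390 in controls. Beyond Hoxa9, Hoxa10 was measured again, at 1.15, 1.56 and 1.09 CPM per kb with RBPMS, against 1.42, 0.773 and 1.47 CPM per kb in controls. Hoxa11 and Hoxa13 had no count. The anterior Hoxa3 averaged 0.903 ± 0.127 CPM per kb with RBPMS and 0.942 ± 0.173 CPM per kb in controls, and Hoxa2 0.471 ± 0.223 with RBPMS and 0.526 ± 0.102 in controls (SD, n = 3 each).

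The Hoxc cluster on chromosome 15 gave 3 counts over all 6 libraries: 2 of Hoxc6, in RBPMS replicates 1 and 3, and 1 of Hoxc9, in control replicate 2. The other 7 Hoxc genes had none. The HOTAIR locus of this cluster, a long noncoding RNA gene, also had no count. All 9 entries of paralog groups 11 to 13, over the 4 clusters, had no count in any library. The limit that 0 counts allow for the 14 silent entries was 0.0118 to 0.0484 CPM per kb with RBPMS and 0.0129 to 0.0528 CPM per kb in controls.

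**Figure D1:**
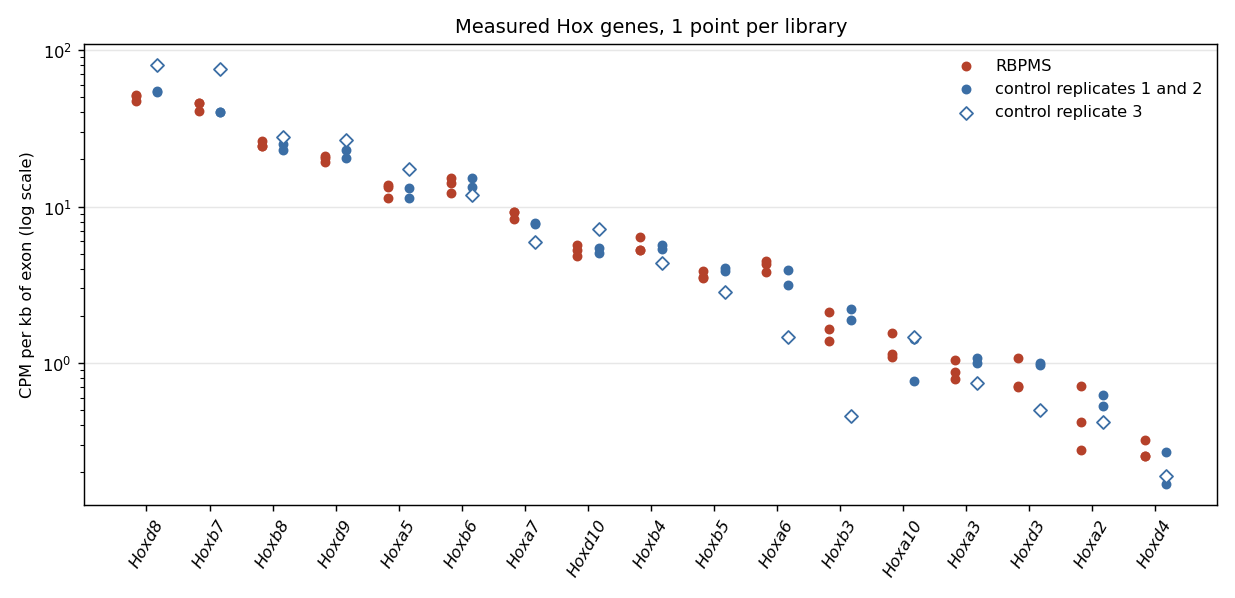
Level of the 17 measured Hox genes in each library, in CPM per kb on a log axis, ordered by the control mean, with RBPMS points left of control points and control replicate 3 drawn as an open diamond. The diamond lies above the other libraries for Hoxd8, Hoxb7, Hoxd9, Hoxa5 and Hoxd10 and below them for Hoxa7, Hoxb5, Hoxa6 and Hoxb3, among others.

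MicroRNA genes lie between the Hox genes. The mature forms of the miR-10 and miR-196 families are shown from RefSeq with the seed (bases 2 to 8) in capitals, because their genes lie among active and silent Hox genes.
miR-10a-5p: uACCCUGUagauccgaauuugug
miR-10b-5p: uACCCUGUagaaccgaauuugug
miR-196a-5p: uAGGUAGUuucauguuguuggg
miR-196b-5p: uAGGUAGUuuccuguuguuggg
The miR-10 pair shares its seed and differs by U12A (miR-10a base, position from the 5′ end, miR-10b base), and the miR-196 pair shares another seed and differs by A12C in the same notation. The hairpin gene Mir10a, between Hoxb5 and Hoxb4, had 3, 4 and 0 counts with RBPMS and 7, 5 and 2 counts in controls. Mir10b, within the Hoxd4 interval, had 0, 2 and 3 counts with RBPMS and 3, 2 and 1 counts in controls. Mir196b within the Hoxa9 interval and Mir196a-2 in the Hoxc cluster had none, and Mir196a-1 upstream of Hoxb9 had 2 counts in RBPMS replicate 3 and 1 in control replicate 3. Libraries of long RNA do not measure the mature microRNAs.

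The overexpressed gene was checked first: Rbpms had 131, 147 and 133 CPM with RBPMS, against 57.0, 56.8 and 55.1 CPM in controls (log2 fold change 1.28 ± 0.101 SE, edgeR adjusted p = 0.0606 over 6 libraries, and 1.27 with adjusted p = 3.6e-11 without control replicate 3). Total counts ran from 18199702 to 21492957 with RBPMS and from 15779567 to 23076124 in controls. All 12 endothelial markers were measured, among them Cdh5, Pecam1 and Vwf, with a summed 18383 to 19346 CPM with RBPMS and 16809 to 21356 CPM in controls. Without control replicate 3, edgeR called 2 of the 12 higher and 3 lower, against 3.81% of all tested genes higher and 3.43% lower. Those higher were Erg (log2 fold change 0.21) and Emcn (0.17), and those lower Vwf (-0.45), Flt1 (-0.22) and Kdr (-0.21). Kdr is also on the list of HOX targets below. Cd68 (0.34) and Flt4 (0.31) rose and Lyve1 (-0.27) fell in the same fit, and no marker was called over all 6 libraries. Marker sums were 5.47 to 6.02 CPM with RBPMS and 5.02 to 7.79 CPM in controls for fibroblasts (6 genes, mostly Pdgfra at 90 to 112 counts a library, with Col1a1 also measured, and Lum and Col3a1 at or near 0), and 1.22 to 1.70 CPM with RBPMS and 1.01 to 1.73 CPM in controls for smooth muscle and pericytes (8 genes, with Myh11 measured at 35 counts with RBPMS and 32 in controls, Tagln at 30 counts with RBPMS and 16 in controls, and Rgs5 at 0). Epithelial and mesothelial markers summed to 17.03 to 21.2 CPM with RBPMS and 21.4 to 26.1 CPM in controls, mostly Msln, with Epcam and Cdh1 at 0. Cardiomyocyte markers summed to 1.81 to 2.51 CPM with RBPMS and 0.816 to 3.78 CPM in controls. Lymphatic markers summed to 720 to 729 CPM with RBPMS and 473 to 748 CPM in controls, all from Lyve1 and Flt4 but for 1 count of Prox1, with Pdpn at 0. Leukocyte markers summed to 53.3 to 58.4 CPM with RBPMS and 41.3 to 46.4 CPM in controls, nearly all of it Cd68, with Cd3e and Adgre1 at 0. Their part in the Hox levels was not tested.

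The contrast asks whether the positional pattern moved with RBPMS. Over all 6 libraries edgeR's quasi-likelihood test called 0 of 17 Hox genes at an adjusted p under 0.05, where 0% of 13898 tested genes were called. None of the 17 had an unadjusted p under 0.05, against 7.56% of all tested genes, and DESeq2 and limma-voom also called 0 of 17. Their log2 fold changes ran from -0.33 to 0.58 with a median of 0.02, beside -0.01 over all tested genes, and 9 of 17 were positive, against 49% of all tested genes. The lowest adjusted p among them was 0.587.

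Without control replicate 3 edgeR's coefficient of biological variation was 0.0489, against 0.196 with it, and the same test called 7.24% of 14123 genes, but 0 of 18 Hox genes. DESeq2 and limma-voom again called 0 of 18. An unadjusted p under 0.05 was found for 3 of the 18, Hoxd8, Hoxa7 and Hoxb7, against 20.9% of all tested genes. The log2 fold changes ran from -0.28 to 0.35 with a median of 0.02, beside -0.00251 over all tested genes, and 10 of 18 were positive, against 49.3% of all tested genes.

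The smallest unadjusted p-values were those of Hoxd8 and Hoxa7. Hoxd8 had a log2 fold change of -0.12 without control replicate 3 (95% interval -0.22 to -0.01, edgeR adjusted p = 0.168) and of -0.33 with it (interval -0.745 to 0.08, adjusted p = 0.587). Hoxa7 had 0.20 without control replicate 3 (interval 0.02 to 0.38, adjusted p = 0.180) and 0.31 with it (interval -0.02 to 0.65, adjusted p = 0.587). For these 2 genes the groups did not overlap in either fit, which was the case for 2 of 17 Hox genes over 6 libraries, against 24.7% of all tested genes (1 higher against 12.1%, 1 lower against 12.6%). Without control replicate 3 it was 3 of 18, against 37.4%, the third being Hoxb7 (2 higher against 18.3%, 1 lower against 19%).

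Hoxb7 depended on the library that stood apart. It had a log2 fold change of 0.14 without control replicate 3 (interval 0.005 to 0.27, edgeR adjusted p = 0.218) and -0.23 with it (interval -0.84 to 0.37, adjusted p = 0.670). The sign also differed between the fits for Hoxa5 (0.06 without and -0.14 with it), Hoxb3 (-0.24 and 0.20), Hoxd3 (-0.25 and 0.02), Hoxb5 (-0.12 and 0.03), Hoxb6 (-0.04 and 0.04), Hoxb8 (0.06 and -0.02) and Hoxd10 (0.00189 and -0.17). None of these values was called.

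The precision differs between members. Without control replicate 3 the 95% interval of Hoxb8 was -0.07 to 0.19 on the log2 scale, that of Hoxd9 -0.25 to 0.055, that of Hoxb6 -0.23 to 0.16 and that of Hoxa5 -0.14 to 0.26. The low genes had wide intervals, of -1.145 to 0.585 for Hoxa2 and -0.59 to 1.28 for Hoxd4. For the genes with no count, a fall or a rise that stayed below the limits given above was not detectable. For those with a few counts, small changes were not detectable at this depth.

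**Figure D2:**
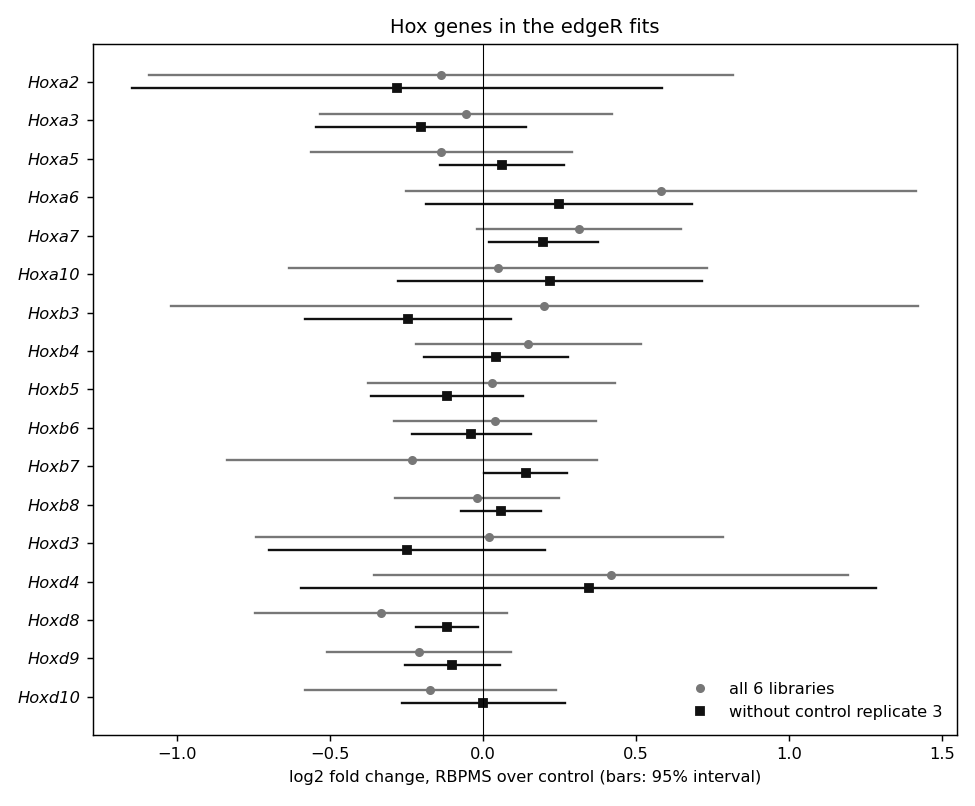
Log2 fold change of RBPMS over control for the 17 Hox genes measured, from edgeR with all 6 libraries (grey circles) and without control replicate 3 (black squares), with 95% intervals as bars. The intervals of the abundant genes shrink without control replicate 3 and stay near 0.

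Control replicate 3 moved Hox genes in both directions. Relative to the mean of control replicates 1 and 2, on log2 of CPM + 0.5, it was higher for 7 of 17 measured Hox genes, led by Hoxb7 (0.90), Hoxd8 (0.56) and Hoxa5 (0.50), and lower for the rest, with Hoxb3 (-1.92), Hoxa6 (-1.02) and Hoxd3 (-0.83) lowest. Over all tested genes this difference fell with annotated length, with medians of 0.51 in the shortest 20% of genes and -0.52 in the longest 20%. Across the 17 Hox genes Spearman's rho between the difference and length was -0.404, and -0.508 across all tested genes, a description over genes that share these 3 libraries. Hoxa6, with 874 bases the shortest Hox gene, went against that order. The summed level of all Hox genes was 451, 465 and 442 CPM with RBPMS, against 454, 461 and 590 CPM in controls, and only control replicate 3 stood out.

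**Figure D3:**
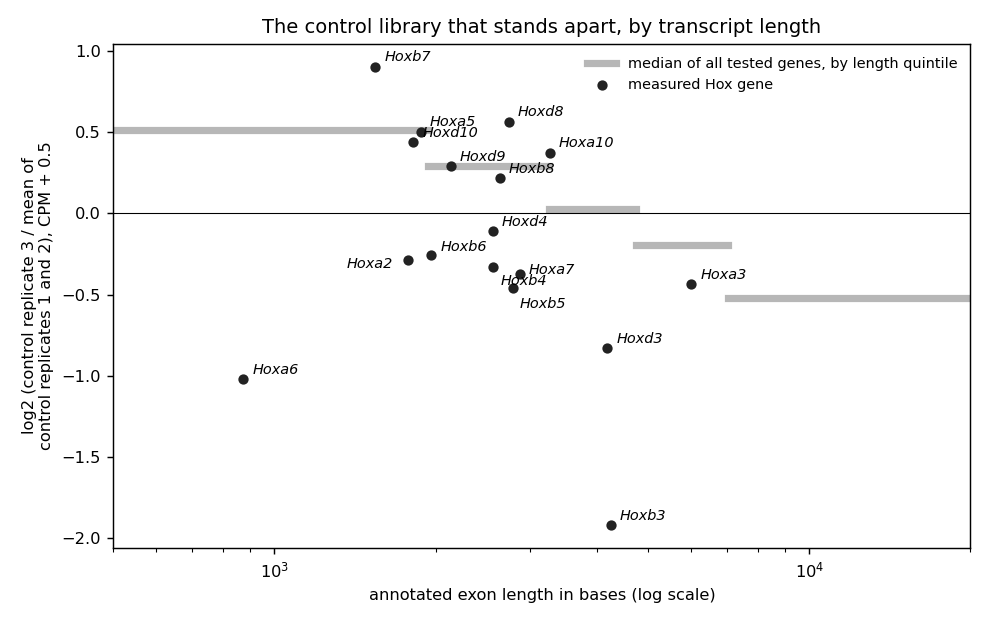
Difference of control replicate 3 from the mean of control replicates 1 and 2 on the log2 scale against annotated exon length in bases (log axis), for the 17 measured Hox genes (points) and as medians of all tested genes in 5 length classes (grey bars). Hoxb7 lies highest and Hoxb3 lowest, and the short Hoxa6 lies below the grey bar of its class.

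Several Hox counts may hold reads of overlapping genes, and strand use was not given in the sources used here. Of 16 measured entries found in GENCODE M21, 7 share annotated exon bases with another gene and 9 with none. Hoxd3 shares 53.1% of its exon bases with Gm28230 on the same strand, Hoxb3 52.9% with its antisense gene Hoxb3os and Hoxa7 20.4% with the antisense gene Hoxaas3. Hoxa2 shares 15.0% with Gm28308 on the same strand, and Hoxa3 4.86% to 8.36% with each of several genes, mostly antisense. The overlap is 5.73% for Hoxd10 and 3.59% for Hoxb5. The values of these 7 are uncertain, most of all those of Hoxd3 and Hoxb3. Hoxd8, Hoxd9, Hoxb7, Hoxb8, Hoxb6, Hoxb4 and Hoxa5 share none.

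Among other genes inside the clusters 12 of 46 were measured: 5 in Hoxa, 4 in Hoxb, 0 in Hoxc and 3 in Hoxd. None was called in either fit, where 0% of all tested genes were called over 6 libraries and 7.24% without control replicate 3. Hoxd3os1, antisense to Hoxd3, had 9.72 ± 0.550 CPM with RBPMS and 12.8 ± 3.38 CPM in controls (SD, n = 3 each). Haglr, a noncoding gene that starts beside Hoxd1 on the other strand, had 2.20 ± 0.473 CPM with RBPMS and 3.04 ± 1.11 CPM in controls although Hoxd1 had no count. Hoxb5os had 2.64 ± 0.0907 CPM with RBPMS and 2.26 ± 1.33 CPM in controls, and Hotairm1, at the anterior end of Hoxa, 1.20 ± 0.278 CPM with RBPMS and 1.27 ± 0.352 CPM in controls. Hoxaas2, Hoxaas3 and Hoxb3os each averaged under 1 CPM in both groups.

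Of 9 genes of TALE cofactors 5 were measured, and without control replicate 3 0 were called higher and 1 lower, against 3.81% of all tested genes higher and 3.43% lower. Meis2, which stabilises HOX and PBX on DNA, had 149, 149 and 148 CPM with RBPMS, against 141, 133 and 107 CPM in controls, and was not called (log2 fold change 0.12, edgeR adjusted p = 0.144 without control replicate 3). Its paralog Meis1 had 1 count in 6 libraries and Meis3 none.

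Among genes known to set Hox expression, the retinoic acid receptor gene Rarb was the 1 called of 9 tested, and it fell, where 3.43% of all tested genes were called lower and 3.81% higher without control replicate 3. It had 9.28, 7.71 and 9.69 CPM with RBPMS, against 14.1, 14.1 and 8.14 CPM in controls. The groups overlap through control replicate 3 alone. Rarb had a log2 fold change of -0.67 ± 0.122 SE without that library (edgeR adjusted p = 0.00164) and -0.44 with it (adjusted p = 0.587). The receptor genes Rxra and Rarg were the most abundant of the list and had log2 fold changes of -0.04 and 0.03 without control replicate 3. No Cdx gene, the direct activators of posterior Hox genes in the embryo, was measured.

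Chromatin regulators of the Hox clusters showed few calls. Of 30 Polycomb genes tested without control replicate 3, 0 rose and 1 fell, against 3.81% of all tested genes higher and 3.43% lower, the 1 being the histone-binding subunit Rbbp7 (-0.18, edgeR adjusted p = 0.0194). The list median was -0.02. Cbx6, with the highest CPM uncorrected for length in RBPMS libraries, had 0.11 (adjusted p = 0.180). Of 20 MLL and trithorax genes 1 rose and 0 fell, against the same shares of all tested genes, the 1 being the H3K27 demethylase gene Kdm6b (0.25, adjusted p = 0.0168), with a list median of 0.02. Kmt2d and Hcfc1, highest in CPM uncorrected for length, had 0.07 and 0.02. Over all 6 libraries the medians were -0.09 for Polycomb and 0.25 for MLL and trithorax, and no member was called. The summed level of the latter list was 2156 to 2207 CPM with RBPMS and 1096 to 2166 CPM in controls, the lowest being control replicate 3. Without control replicate 1 as well, neither call held (Rbbp7 -0.14, adjusted p = 0.226, and Kdm6b 0.13, adjusted p = 0.370), nor without RBPMS replicate 1 (-0.16, adjusted p = 0.128, and 0.25, adjusted p = 0.0620).

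Genes reported as HOX targets in endothelium were lower where called: of 13 tested 4 fell and 0 rose without control replicate 3, against 3.43% of all tested genes lower and 3.81% higher, with a median log2 fold change of -0.14. The integrin gene Itgb3, a target of HOXD3, had 895, 842 and 905 CPM with RBPMS, against 1100, 1137 and 747 CPM in controls. Control replicate 3 was the lowest of all 6. The log2 fold change of Itgb3 was -0.34 ± 0.0476 SE (edgeR adjusted p = 1.1e-04) without it and -0.18 with it (adjusted p = 0.656). The protease gene Mmp14 (-0.35, adjusted p = 0.0150), the integrin gene Itga5 (-0.19, adjusted p = 0.0141) and the VEGF receptor gene Kdr (-0.21, adjusted p = 0.0109) also fell in that fit, and had -0.30, -0.08 and -0.01 over all 6 libraries. These 3 calls did not hold without control replicate 2 as well (adjusted p = 0.189, 0.145 and 0.0617), and those of Itga5 and Kdr not without RBPMS replicate 2 (0.0543 and 0.0798), that of Mmp14 not without RBPMS replicate 1 (0.0522). Cdh5 had 0.13 (adjusted p = 0.0897).

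Other positional factors were mostly silent. Of 33 genes that mark places outside the Hox system, from the forebrain to the hindlimb, 18 had no count in any library and 8 were tested without control replicate 3. Foxf1, a forkhead gene of visceral mesoderm and vessels, had 144 ± 3.43 CPM with RBPMS and 138 ± 20.6 CPM in controls, and Tbx2 had 36.9 ± 4.03 CPM with RBPMS and 33.3 ± 2.05 CPM in controls (SD, n = 3 each). The 1 called lower (0 higher), Prrx1, fell, against 3.43% of all tested genes lower, and was low in every library: it averaged 0.228 CPM with RBPMS and 0.901 CPM in control replicates 1 and 2 (log2 fold change -1.93, edgeR adjusted p = 0.0260), with 0.176 CPM in control replicate 3. That call was lost without either control (adjusted p = 0.107 and 0.260) and without RBPMS replicate 2 or 3 (0.0588 and 0.0587).

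Genes flanking the clusters were also expressed beside the silent Hoxc cluster. Of 25 named neighbours 21 were tested, and without control replicate 3 1 rose and 2 fell, against 3.81% of all tested genes higher and 3.43% lower. The neighbours next to Hoxb were not measured: Ttll6 had no count, Calcoco2 had 8 counts with RBPMS and 14 in controls, and Skap1 had 3 counts with RBPMS and 9 in controls, each over 3 libraries. Nearest to Hoxd of the named neighbours, Mtx2 and Lnpk were not called (log2 fold change 0.01 and -0.11 without control replicate 3). Nfe2l2 spans 75675513 to 75704641 on chromosome 2 (minus strand), far beyond Mtx2, which ends at 74878431. Nfe2l2 had 381, 404 and 398 CPM with RBPMS, against 313, 311 and 381 CPM in controls (log2 fold change 0.34 ± 0.0458 SE, edgeR adjusted p = 8.4e-05 without control replicate 3, and 0.23 with adjusted p = 0.587 with it). Beside Hoxc, Hnrnpa1 had 310 ± 7.08 CPM with RBPMS and 396 ± 74.4 CPM in controls, and Cbx5 231 ± 9.86 CPM with RBPMS and 225 ± 65.6 CPM in controls (SD, n = 3 each). Both were called lower without control replicate 3 (-0.19, adjusted p = 0.0201, and -0.18, adjusted p = 0.0478) and not without control replicate 1 as well (adjusted p = 0.327 and 0.524) or RBPMS replicate 1 (0.120 and 0.134), nor Cbx5 without RBPMS replicate 2 (0.158). Nfe2l1, farther from Hoxb, had 553 ± 20.7 CPM with RBPMS and 516 ± 74.0 CPM in controls.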

How the data were processed

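Counts per gene of 6 RNA libraries were analysed as deposited by the authors. Ribosomal RNA was removed before library construction, per the labels' protocols, and per the submitters' processing notes FastQC, Salmon and the mm10 build were used. Versions, how whole-number counts arose and strand use were not given in the sources used here. The gene lengths deposited by the authors equal the union of annotated GENCODE M21 exons for 38 of 39 Hox entries found there, with identical coordinates for 38. These lengths gave the CPM per kb, which is too low for a gene whose transcripts use only part of the union.

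In R 4.3.3, edgeR 4.0.16 (filterByExpr by group, TMM, quasi-likelihood test with no covariate, Benjamini-Hochberg adjustment across every gene tested, threshold 0.05) was run on all 6 libraries and without control replicate 3, and checked on simulated data. Levels are CPM of the total count with TMM scaling. Standard errors were the log2 fold change divided by the root of F, and 95% intervals use the t distribution. Limits for 0 counts take 3 counts. Alternatives were DESeq2 1.42.0 size factors and Wald test, total library size, other filters, limma-voom (limma 3.58.1), the replicate number as a block, loess trends on length as offsets (span 0.3) and each library left out. Chi-square per degree of freedom between libraries of a group was at least 3.19, so none was a copy of another.

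The Hox genes and all lists were chosen with earlier results of these data known. Of each list, up to 4 genes called without control replicate 3 and the 2 most abundant were to be named. Meis1, Meis3, the Cdx genes, some neighbours of the clusters and single markers were named after their values were seen. Results for some listed genes are not reported here.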

Additional observations from a re-analysis of the deposited data

How the results depend on the processing

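No Hox gene was called by edgeR, DESeq2 or limma-voom, in either fit, under any alternative run. Over all 6 libraries the count of all genes called, 0, became 5 with no filter on low counts, 56 with the DESeq2 Wald test and 3 with length trends as offsets, and ranged from 0 to 1022 with 1 library left out. Without control replicate 3 the count was 1022, and 415 to 1017 with 1 more library left out. Rbpms was then called over 6 libraries with no filter (1.28, adjusted p = 0.0027), with DESeq2 (1.28) and with length offsets (1.17), and its log2 fold change was 1.23 to 1.32 with 1 library left out. The number of Hox entries counted as expressed, 17 by the filter, was 13 at a mean of at least 1 CPM per kb and 15 with at least 10 counts in every library.

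No pairing of the samples by replicate number was seen. Deviations of same-numbered libraries from their group means correlated at 0.0505, -0.0252 and 0.0131, and 2 of 3 controls correlated best with another number. Control replicate 3 dominates the deviations of all controls, so this check could hardly show a pairing and does not exclude one. With the replicate block 0 genes were called over 6 libraries and 917 without control replicate 3, and the uncalled log2 fold changes of Kdr over 6 libraries (0.019) and, without control replicate 3, of Hoxb6 (0.042) and Hoxd10 (-0.055) had the other sign. So had Kdr with limma-voom (0.012), Hoxb8 (0.030) and Cbx5 (-0.10) with length offsets over 6 libraries, and, without control replicate 3, Hoxd10 by total library size (-0.0025) and limma-voom (-0.0033). The cause was not tested.

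With 1 library left out of 6, log2 fold changes that crossed 0 ran from -0.19 to 0.22 for Hoxa10, -0.57 to 0.12 for Hoxa2, -0.20 to 0.049 for Hoxa3, -0.27 to 0.063 for Hoxa5, -0.24 to 0.59 for Hoxb3, -0.12 to 0.13 for Hoxb5, -0.038 to 0.13 for Hoxb6, -0.39 to 0.14 for Hoxb7, -0.085 to 0.059 for Hoxb8, -0.27 to 0.0019 for Hoxd10, -0.25 to 0.19 for Hoxd3, -0.18 to 0.22 for Cbx5, -0.19 to 0.0046 for Itga5 and -0.21 to 0.11 for Kdr. With 1 more left out of the 5 they ran from -0.16 to 0.72 for Hoxa10, -0.038 to 0.17 for Hoxa5, -0.061 to 0.095 for Hoxb4, -0.13 to 0.053 for Hoxb6 and -0.052 to 0.065 for Hoxd10. Where 1 control was left, it was assumed to vary like the RBPMS libraries. The calls of Rarb, Itgb3 and Nfe2l2 without control replicate 3 held under every alternative run on that fit. Depth limits the low genes: a median of 202 counts per library lay behind the measured Hox genes, and under 20 behind Hoxd4.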
